A study of Homo sapiens with 9 samples.

Results

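The 46 genes described here encode the proteins that mark, license and fire DNA replication origins and that copy DNA at the replication fork. They were chosen by name, from the known roles of their products, out of 78986 genes in the table of counts, and each name matched 1 protein-coding gene. The data are 9 RNA-seq libraries of HEK293T cells that stably express p53, with 3 labelled biological replicates for WT, 3 for G245S and 3 for R273H. HEK293T is a human embryonic kidney line, which the labels enter as HEK 293 and describe as epithelial, and the study's methods give lentiviral delivery of p53 and growth in puromycin at 1.5 µg/mL for all 3 lines, with the promoter of the vector not given in the sources used here. G245S and R273H are substitutions in the DNA-binding domain of p53, and cells expressing WT p53 served as the control. All lines express added p53 in a cell that carries the SV40 large T antigen, a viral protein that binds p53 and the RB family, so no line represents p53 acting alone. The comparison asks whether the RNA of the replication machinery differs between cells that express WT p53 and cells that express a mutant.

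An origin is bound by the origin recognition complex, which, with CDC6 and CDT1, loads the ring of MCM2 to MCM7 around DNA in G1. In S phase the kinase CDC7, with its activator DBF4, and the assembly factors CDC45, GINS and MCM10 turn that ring into the moving helicase. Polymerases alpha, delta and epsilon then copy the strands, held by the sliding clamp PCNA that the RFC complex loads. Most of these genes are transcribed at the G1/S boundary under E2F factors, which RB proteins hold in check. Active p53 can lower their RNA through the CDK inhibitor CDKN1A, and PCNA has itself been described as a gene that p53 can switch on.

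Library totals ranged from 7325514 to 9667306 counts in 8 libraries and were 1486315 in WT replicate 3. The study's methods leave out a WT replicate for poor quality and low reads without naming it. The comparisons with WT here rest on WT replicates 1 and 2. Values with all 3 are given for some or all members of each role and for the members described most fully. Every member had at least 154 counts in each of the 8 deeper libraries and at least 31 in WT replicate 3, so all 46 passed the filter on low counts in every comparison. The epithelial keratins stood apart in WT replicate 3, where KRT8 was at 54.8 CPM and KRT18 at 161 CPM, against at most 12.1 and 68.8 CPM in the other libraries. VIM, NEFL and NEFM, also expressed by this line, were at 43.4 CPM or more in all 9 libraries. The leukocyte gene CD3E was at 0 in all 9, PTPRC, PECAM1, CDH5 and DCN were at 0.957 CPM or less, and the hepatocyte genes ALB and APOA1 reached 2.81 and 3.51 CPM in WT replicate 3, against at most 0.238 and 0.771 CPM elsewhere. The ALB and APOA1 values of WT replicate 3 rest on few counts, since 3 counts are 2.02 CPM by the total of that library. The fibroblast genes COL1A1 and COL3A1 were at 4.69 to 36.9 CPM with overlapping ranges in the 3 groups. CPM is the usual depth-scaled count of a gene, here with library totals scaled by the TMM method. Counts reflect the RNA of whole cultures, so fewer cells in S phase and less RNA per cell cannot be told apart.

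MDM2, a p53 target, was at 79.3 and 84.7 CPM in WT replicates 1 and 2, at 44.1 to 47.3 CPM in G245S and at 41.9 to 46.2 CPM in R273H, with 66.1 CPM in WT replicate 3. Its log2 fold changes of −0.82 and −0.90 passed in edgeR, where the adjusted p was 0.000848 and 0.000228. With all 3 WT libraries both passed, at −0.77 and −0.85 with adjusted p of 0.00743 and 0.00328 in edgeR. With WT replicates 1 and 3 in place of 1 and 2 neither passed, at −0.69 and −0.77 with adjusted p of 0.136 and 0.0642 in edgeR.

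No replication gene passed a Benjamini-Hochberg adjusted p of 0.05 in any comparison with edgeR's quasi-likelihood test. Of all genes tested, 0.126% passed in G245S against WT, 0.137% in R273H against WT and 0% between the mutants, where DESeq2 passed 1 gene. The fold changes were small and mostly below 0 on the log2 scale. In G245S the median log2 fold change of the 46 genes was −0.10, with 38 lower and 8 higher than WT by sign, and the extremes were −0.38 for PCNA and 0.23 for PRIM2. In R273H the median was −0.10, again with 38 lower and 8 higher by sign, and the extremes were −0.29 for PCNA and 0.17 for PRIM2. The median over all genes tested was 0.003 in G245S and 0.002 in R273H, and 49.2% and 49.3% of all genes were lower by sign. At an unadjusted p under 0.05, 5 members were lower and 1 higher in G245S, which is 10.9% and 2.17% of the members against 3.3% and 3.35% of all genes. In R273H 5 were lower and 0 higher, against 3.33% and 2.78% of all genes. DESeq2 passed 0 members after adjustment in each comparison. At an unadjusted p under 0.05 it gave 3 lower members in each mutant, against 1.45% of all genes in G245S and 1.42% in R273H. These unadjusted counts were not stable in edgeR. In G245S the 5 became 3 without G245S replicate 3, against 3.01% of all genes, and 3 with WT replicates 1 and 3, against 2.97%. The count was 1 with a replicate block (3.03%), 7 without G245S replicate 2 (4.66%) and 8 with 1 fit of all 3 groups (3.95%). In R273H the 5 became 1 without R273H replicate 1, against 2.82% of all genes, and 1 with WT replicates 2 and 3, against 5.65%. The count there was 0 with a replicate block (2.17%), 8 without R273H replicate 2 (3.91%) and 7 with no filter on low counts (2.33%). These comparisons use the same WT libraries, so their agreement in sign is not independent.

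The size of a change that these libraries leave room for can be read from the 95% intervals of the fold changes. In G245S the interval of 44 of the 46 members lay wholly within 0.5 of 0 on the log2 scale, a 1.41-fold change either way. The bounds farthest from 0 were 0.59 below it for PCNA, a 1.50-fold difference, and 0.51 below it for RFC2. In R273H 45 of 46 intervals lay within that range, and the farthest bound was 0.53 below 0 for POLA1, a 1.44-fold difference. For all 46 members, therefore, a 2-fold change lay outside the interval in both mutants. The spread of the members' log2 fold changes was of the size of their standard errors, with an SD of 0.12 against a median standard error of 0.096 in G245S and 0.098 against 0.095 in R273H.

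**Figure D1:**
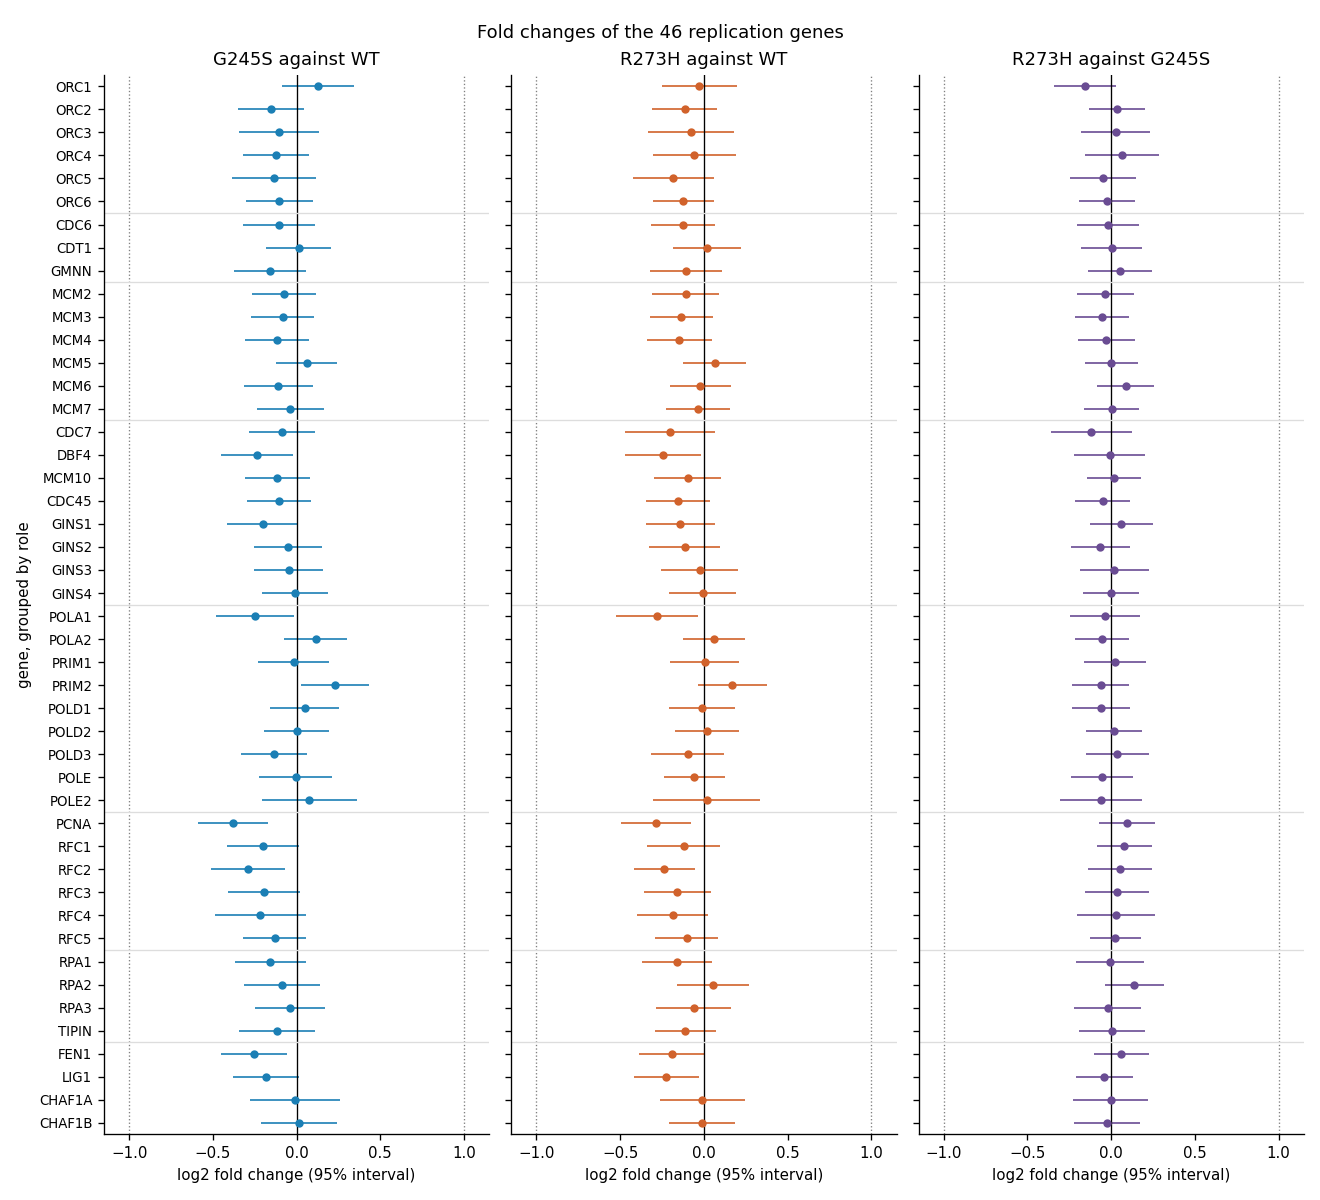
Log2 fold changes (x axis) of the 46 replication genes (y axis, grouped by role from origin recognition at the top to chromatin assembly at the bottom) with 95% intervals, for G245S against WT, R273H against WT and R273H against G245S, each WT comparison with WT replicates 1 and 2. No interval reaches the dotted lines at a log2 fold change of 1 in either direction, most points lie left of 0 in the WT comparisons, and PCNA lies farthest left in both.

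The WT library left out lay on the other side of this pattern. The median level of the 46 genes in WT replicate 3, as log2(CPM + 1), was 0.19 below the mean of WT replicates 1 and 2, while the mutant libraries lay 0.072 to 0.13 below it. WT replicate 3 was the lowest of all 9 libraries for 22 members, MCM3 to MCM7 among them, and the highest for 7, which included DBF4, RFC4 and RPA3. As a share of all counts the 46 genes made up 0.453% and 0.454% in WT replicates 1 and 2, 0.416% to 0.427% in G245S and 0.421% to 0.437% in R273H. The share in WT replicate 3 was 0.385%, with a 95% Wilson interval of 0.375% to 0.395% that covers counting error only. It was thus below every mutant library. With all 3 WT libraries the median log2 fold change of the members was −0.045 in G245S and −0.063 in R273H, with 32 of 46 genes lower by sign in each. With WT replicates 2 and 3 alone it was 0.0062 and −0.024, with 23 and 27 genes lower. The higher keratin levels and the low depth of WT replicate 3 moved with this difference, and their part in it was not tested.

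**Figure D2:**
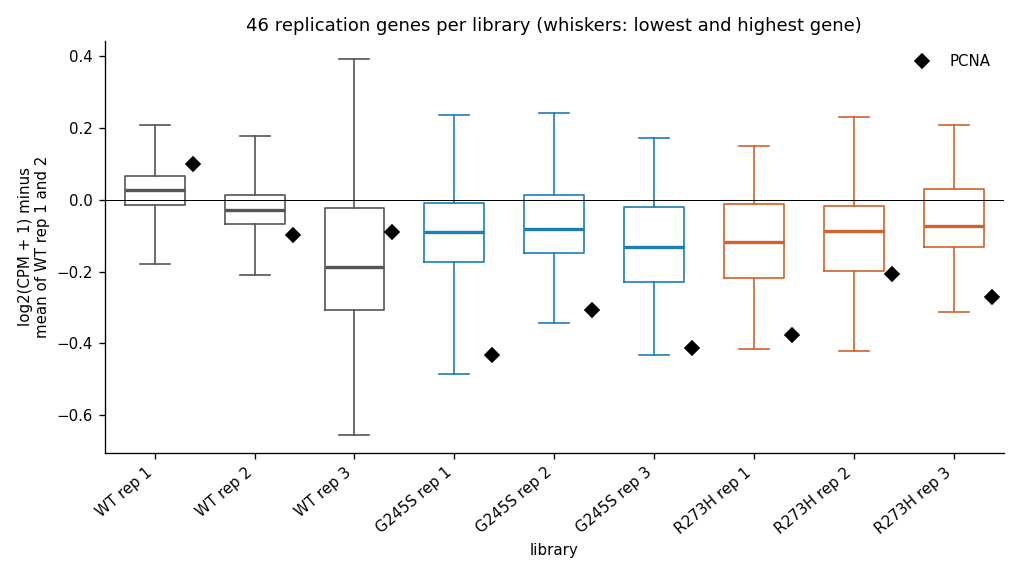
Levels of the 46 replication genes in each of the 9 libraries (x axis), as log2(CPM + 1) minus the mean of WT replicates 1 and 2 (y axis). Boxes run from the lower to the upper quartile of the genes, the bar is the median, whiskers reach the lowest and highest gene, and the diamond is PCNA. The median of WT replicate 3, at −0.19, is below those of all mutant libraries, while PCNA in that library lies with the other WT libraries.

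The sliding clamp and its loader were the group with the lowest median in both mutants. PCNA (ENSG00000132646; GRCh38 chromosome 20, 5114953 to 5126626) forms the ring that tethers polymerases to DNA. It was at 407 CPM in WT replicate 1, 355 CPM in WT replicate 2 and 357 CPM in WT replicate 3. In G245S it was at 281, 307 and 285 CPM, and in R273H at 293, 330 and 315 CPM. Every mutant library was therefore below every WT library, the shallow one included. In edgeR, G245S gave a log2 fold change of −0.38 for PCNA, with a standard error of 0.0972, an unadjusted p of 0.00158 and an adjusted p of 0.313. R273H gave −0.29 in edgeR, with a standard error of 0.097, an unadjusted p of 0.0103 and an adjusted p of 0.645. With all 3 WT libraries edgeR gave −0.36 and −0.26, with adjusted p of 0.614 and 0.894. Over the alternatives tried, edgeR's and DESeq2's adjusted p for PCNA in G245S went from 0.0538 to 0.969, so PCNA did not pass in any of them.

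PCNA was also compared with the other replication genes of the same library, which needs no scaling between libraries. As a share of the counts of the 46 genes themselves, a measure added after the values were seen, PCNA made up 8.75%, 7.92% and 8.88% in the WT libraries, 6.68%, 7.15% and 6.91% in G245S and 6.92%, 7.82% and 7.28% in R273H. The groups did not overlap, although the 95% Wilson interval of R273H replicate 2, 7.53% to 8.13%, crossed that of WT replicate 2, 7.64% to 8.21%. Computed for all 46 members, 4 had shares that separated the 3 WT from the 6 mutant libraries. PCNA and RFC2 were lower and PRIM2 and MCM5 higher in the mutants. Counts taken relative to the summed counts of the 46 genes in the same way were lower in the mutants without overlap for 0.946% and higher for 7.71% of 16284 genes, so the 2 higher members are a smaller share than that of all genes. The members themselves make up the denominator of this measure.

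**Figure D3:**
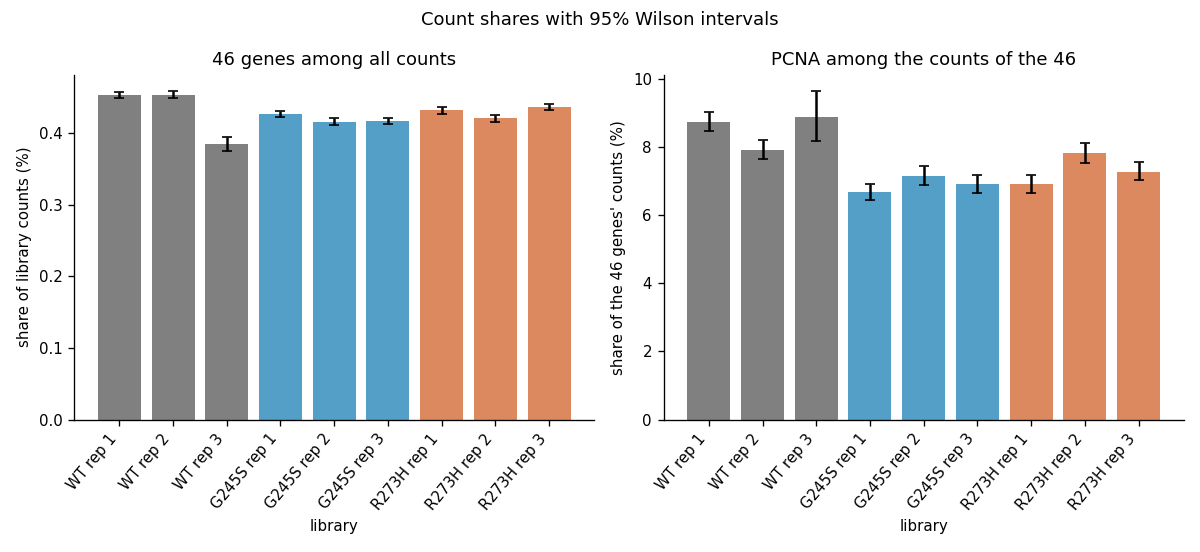
Left, the share of each library's counts (y axis, %) that fell on the 46 replication genes. Right, the share of the counts of those 46 genes (y axis, %) that fell on PCNA. Bars are the 9 libraries, coloured by line, with 95% Wilson intervals. WT replicate 3 has the lowest bar on the left, 0.385%, and the highest on the right, 8.88%.

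RFC1 to RFC5 form the clamp loader, which opens PCNA and places it on primed DNA. All 5 were lower by sign in both mutants, from −0.29 for RFC2 to −0.13 for RFC5 in G245S and from −0.24 for RFC2 to −0.10 for RFC5 in R273H. RFC2 (ENSG00000049541; GRCh38 chromosome 7, 74231499 to 74254458) was at 95.5, 94.1 and 94.2 CPM in WT replicates 1, 2 and 3, at 67.5, 86.1 and 78.4 CPM in G245S and at 77.2, 79.7 and 84.1 CPM in R273H. The 3 WT libraries agreed closely for RFC2 and lay above all mutant libraries. Its unadjusted p was 0.013 in G245S and 0.0141 in R273H, and edgeR's adjusted p was 0.638 and 0.702. RFC4 varied more within lines, from 53.8 to 75.5 CPM in G245S, and was highest of all in WT replicate 3 at 95.6 CPM. Over the clamp and loader genes the median was −0.21 in G245S and −0.17 in R273H on the log2 scale, with 6 of 6 genes lower by sign in each. With all 3 WT libraries the medians were −0.24 and −0.18, again with 6 of 6 lower by sign, and RFC2 had −0.29 and −0.24. Between the mutants all 6 were slightly higher in R273H by sign, from 0.025 to 0.094.

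FEN1 and LIG1 finish the lagging strand: FEN1 trims the flap of an Okazaki fragment and LIG1 seals the nick, and both bind PCNA. FEN1 (ENSG00000168496; GRCh38 chromosome 11, 61792911 to 61797238) was at 255 and 232 CPM in WT replicates 1 and 2, at 199.96, 212 and 198 CPM in G245S and at 214, 201 and 225 CPM in R273H. It was also at 194 CPM in WT replicate 3, below every mutant library. Its log2 fold change was −0.25 in G245S (unadjusted p = 0.0143, edgeR's adjusted p = 0.656) and −0.19 in R273H (unadjusted p = 0.0547, edgeR's adjusted p = 0.835), and −0.17 and −0.11 with all 3 WT libraries. LIG1 (ENSG00000105486; GRCh38 chromosome 19, 48115445 to 48170603) was at 42.5, 43.7 and 39.4 CPM in the WT libraries, at 38.9, 37.9 and 36.3 CPM in G245S and at 36.6, 36.1 and 37.8 CPM in R273H. The WT and mutant ranges of LIG1 were separated by less than 1 CPM. Its log2 fold change was −0.18 in G245S (edgeR's adjusted p = 0.768) and −0.22 in R273H (edgeR's adjusted p = 0.76), and −0.17 and −0.21 with all 3 WT libraries. The chromatin assembly factors CHAF1A and CHAF1B, which deposit histones behind the fork, had log2 fold changes between −0.011 and 0.013 in both mutants.

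In CPM, no subunit of the replicative helicase separated the 3 WT libraries from the 6 mutant libraries. MCM2 was at 261 and 248 CPM in WT replicates 1 and 2, at 244, 232 and 245 CPM in G245S and at 252, 217 and 239.8 CPM in R273H. WT replicate 3, at 219 CPM, fell inside the range of R273H. MCM3 was at 173 and 180.3 CPM in WT, 172, 162 and 164 CPM in G245S and 169, 153 and 161 CPM in R273H, with 142 CPM in WT replicate 3. MCM4 was at 194 and 199 CPM in WT, 179.6, 171 and 189.6 CPM in G245S and 192, 171 and 169.7 CPM in R273H, with 143 CPM in WT replicate 3. For both genes every mutant library lay between WT replicate 3 and the lower of WT replicates 1 and 2. MCM5 was at 128 and 123 CPM in WT, 128, 132 and 130.4 CPM in G245S and 138, 122 and 132 CPM in R273H, and at 87.9 CPM in WT replicate 3. MCM6 was at 171 and 161 CPM in WT, 165, 154 and 139 CPM in G245S and 162, 163 and 165 CPM in R273H, and at 109 CPM in WT replicate 3. MCM7 was at 353 and 364 CPM in WT, 343, 367 and 333 CPM in G245S and 365, 338 and 346 CPM in R273H, and at 307 CPM in WT replicate 3. For these 3 genes the range of the 6 mutant libraries overlapped that of WT replicates 1 and 2.
The log2 fold changes of the 6 subunits ran from −0.12 for MCM4 to 0.061 for MCM5 in G245S and from −0.15 for MCM4 to 0.064 for MCM5 in R273H. Their standard errors were 0.085 to 0.097 and edgeR's lowest adjusted p among them was 0.855 in G245S and 0.93 in R273H. With all 3 WT libraries MCM6 and MCM7 turned to the other sign in both mutants, 0.021 and 0.019 in G245S and 0.11 and 0.025 in R273H, and 3 of the 6 subunits were lower and 3 higher by sign in each. MCM5 was then at 0.17 in both (edgeR's adjusted p = 0.848 and 0.95). Per kilobase of annotated exon, the RNA levels of the subunits in WT ran from 17.2 ± 0.495 CPM per kb (SD, n = 2) for MCM5 to 72.3 ± 1.60 CPM per kb (SD, n = 2) for MCM7. The exon lengths are those of the deposited table, 3645 to 9852 bases for these genes, and count every annotated exon once. Such a length can exceed that of the transcript expressed. These values therefore do not show whether the RNA levels match the 1 copy of each subunit in the ring.

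**Figure D4:**
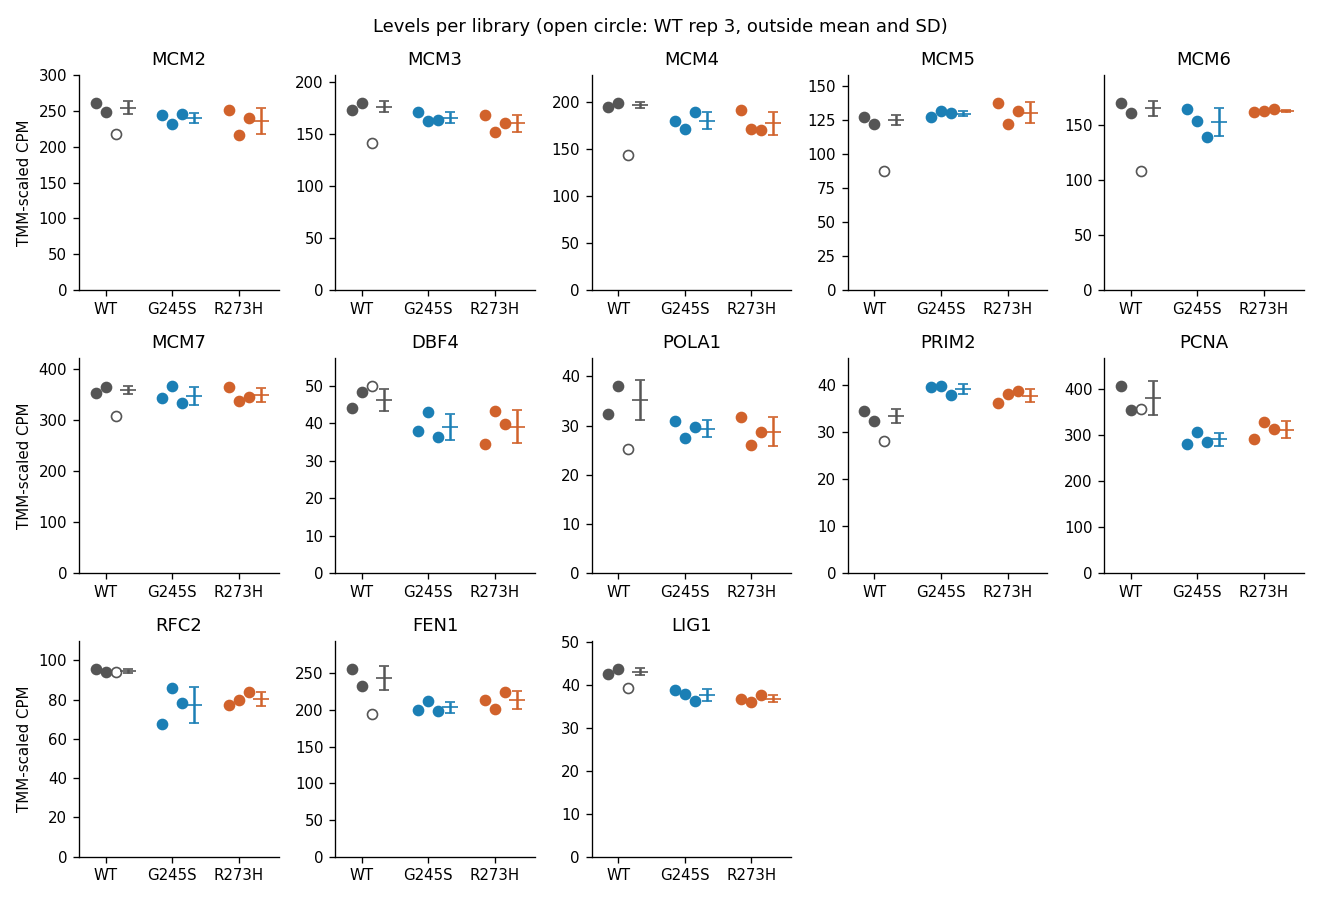
TMM-scaled CPM (y axis, from 0) of 13 replication genes in each library, by line (x axis): MCM2 to MCM7, PCNA and the members with an unadjusted p under 0.05 in a comparison. Filled points are the libraries in the fits, the open circle is WT replicate 3, and the bar gives mean ± SD of the filled points (n = 2 for WT, n = 3 for each mutant). PCNA and RFC2 are lower and PRIM2 is higher in all mutant libraries than in all 3 WT libraries, while the open circle is the lowest point for MCM3 to MCM7.

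Origin recognition and licensing genes differed little. ORC1 to ORC6, which mark origins, had log2 fold changes from −0.15 for ORC2 to 0.13 for ORC1 in G245S and from −0.18 for ORC5 to −0.028 for ORC1 in R273H. The ORC medians were −0.092 and −0.081 with all 3 WT libraries. ORC2 was at 42.9 and 41.2 CPM in WT replicates 1 and 2, 37.2, 37.4 and 38.4 CPM in G245S and 38.3, 38.8 and 39.3 CPM in R273H, but at 34.4 CPM in WT replicate 3. CDC6, the loader of the helicase, had −0.11 and −0.12. CDT1, its partner, had 0.013 and 0.017, and GMNN, the inhibitor that binds CDT1 and keeps origins from being licensed again, had −0.16 and −0.11. With all 3 WT libraries CDC6 had −0.041 and −0.057, CDT1 0.056 and 0.061, and GMNN −0.16 and −0.11. GMNN accumulates in S and G2 and CDT1 in G1 at the protein level. The ratio of their counts was taken in each library, which is a ratio of RNA and does not measure these proteins. It was 1.02, 0.925 and 1.12 in the WT libraries, 0.794, 0.986 and 0.826 in G245S and 0.752, 1.09 and 0.874 in R273H. The ranges overlapped, with 1 library of each mutant above WT replicate 2.

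Among origin firing genes all 8 were lower by sign in both mutants against WT replicates 1 and 2, with medians of −0.095 and −0.13. Against all 3 WT libraries 6 of 8 were lower in each, with medians of −0.060 and −0.079. GINS2 and GINS4 then had 0.0098 and 0.0097 in G245S, and GINS3 and GINS4 0.016 and 0.0099 in R273H. DBF4, the activator of the CDC7 kinase, was at 44.1 and 48.3 CPM in WT replicates 1 and 2 and at 49.9 CPM in WT replicate 3. It was at 37.9, 43.0 and 36.3 CPM in G245S and at 34.3, 43.2 and 39.7 CPM in R273H. All mutant libraries were lower than all WT libraries, the nearest pair by under 1 CPM. The log2 fold changes of DBF4 were −0.24 in each mutant (edgeR's adjusted p = 0.725 and 0.785), and −0.26 in each with all 3 WT libraries. CDC7 had −0.088 in G245S and −0.20 in R273H, where its libraries spread from 41.7 to 59.6 CPM. CDC45 had −0.10 and −0.15, MCM10 −0.11 and −0.096, and the 4 GINS genes ran from −0.20 for GINS1 to −0.0076 for GINS4 in G245S and from −0.14 to −0.0083 in R273H.

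The polymerase subunits were divided in sign, with 5 of 9 lower in G245S and 4 of 9 in R273H, and medians of −0.00031 and 0.0062. Against all 3 WT libraries 3 of 9 were lower in each, with medians of 0.066 and 0.017. POLA1, the catalytic subunit of polymerase alpha, was at 32.4 and 38.03 CPM in WT replicates 1 and 2, 31.0, 27.4 and 29.8 CPM in G245S and 31.7, 26.0 and 28.8 CPM in R273H. Its log2 fold changes were −0.25 and −0.28 (adjusted p of 0.725 and 0.759 in edgeR). It was lower still in WT replicate 3, at 25.3 CPM, and with that library the fold changes were −0.19 and −0.22. PRIM2, the large subunit of the primase that works in the same complex, went the other way. It was at 34.5, 32.4 and 28.1 CPM in the WT libraries, 39.5, 39.7 and 37.8 CPM in G245S and 36.1, 37.995 and 38.7 CPM in R273H, so every mutant library was above every WT library. The log2 fold changes of PRIM2 were 0.23 (unadjusted p = 0.0305, edgeR's adjusted p = 0.704) and 0.17 (unadjusted p = 0.0988, edgeR's adjusted p = 0.915), and 0.26 and 0.20 with all 3 WT libraries. PRIM1, the catalytic primase subunit, had −0.016 and 0.0062, and POLA2 0.11 and 0.059. The delta and epsilon subunits POLD1, POLD2, POLD3, POLE and POLE2 lay between −0.14 and 0.075.

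RPA1 to RPA3 coat single-stranded DNA and TIPIN stabilizes the fork. They had log2 fold changes of −0.16 to −0.039 in G245S and −0.16 to 0.053 in R273H. RPA1 and RPA3 stood at opposite ends in WT replicate 3, where RPA1 was at 82.9 CPM against 104 to 133 CPM in the other 8 libraries and RPA3 at 155 CPM against 98.4 to 126 CPM. RPA1 had −0.025 and −0.029 and RPA3 −0.15 and −0.17 with all 3 WT libraries.

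By the ranges of the libraries in the fits, 14 members were lower and 4 higher in G245S than in WT without overlap, which is 30.4% and 8.70% of the members against 10.1% and 12% of all genes tested. In R273H 14 were lower and 1 higher, 30.4% and 2.17% of the members against 10.3% and 10.4% of all genes. With all 3 WT libraries 7 of the 46 were lower in G245S and 5 in R273H without overlap, against 5.75% and 5.82% of all genes. Taking the 6 mutant libraries against all 3 WT libraries together, an alternative added after the values were seen, PCNA, RFC2, DBF4 and LIG1 were lower and PRIM2 higher without overlap. These are 8.70% and 2.17% of the members, against 2.33% and 2.25% of 16284 genes with a mean of at least 1 CPM.

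**Figure D5:**
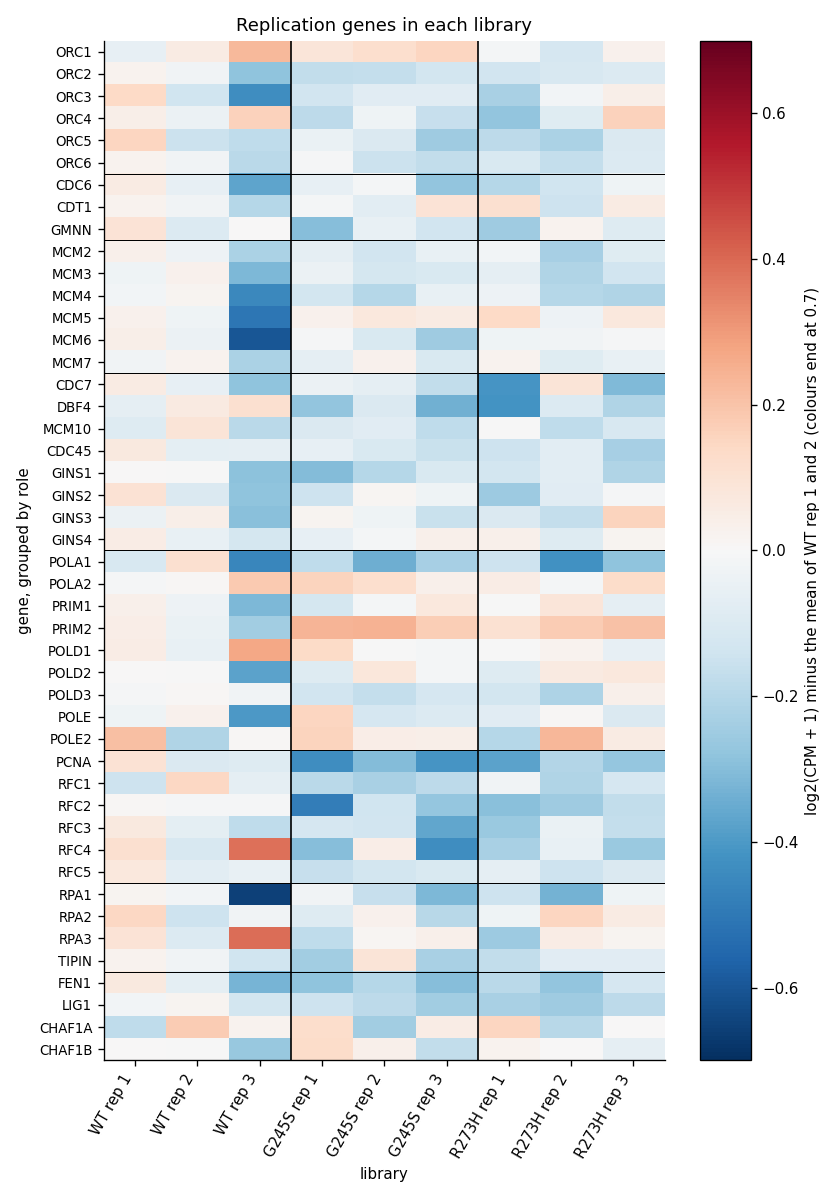
Each of the 46 replication genes (rows, grouped by role) in each of the 9 libraries (columns), as log2(CPM + 1) minus the mean of WT replicates 1 and 2, from blue (lower) to red (higher). The rows of PCNA and RFC2 are bluer in all 6 mutant columns than in WT replicate 3, the row of PRIM2 is red in all 6, and the column of WT replicate 3 holds its deepest blues at RPA1, MCM6 and MCM5.

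Between the mutant lines the fold changes were the smallest of the 3 comparisons. The median of R273H against G245S was −8.5e-05 on the log2 scale, with 23 of 46 genes lower by sign against 51.7% of all genes, and 43 of 46 lay within 0.1 of 0. edgeR's quasi-likelihood test passed 0 members, with 0 at an unadjusted p under 0.05, against 2.46% of all genes lower and 2.29% higher at that level. The farthest bound of a 95% interval was 0.36 below 0 for CDC7, a 1.28-fold difference. The SD of the 46 fold changes was 0.056, below their median standard error of 0.085. ORC1 had the lowest p, 0.0897 (edgeR's adjusted p = 0.994). It was at 31.1, 31.8 and 32.6 CPM in G245S and at 29.04, 26.9 and 29.9 CPM in R273H, and was the only member whose mutant libraries did not overlap, 2.17% of the members against 4.82% of all genes lower and 4.33% higher. It was at 28.2, 30.5 and 34.4 CPM in the WT libraries, whose range held all of these values but that of R273H replicate 2. PCNA was 0.094 higher in R273H on the log2 scale (95% interval −0.075 to 0.26).

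The promoters of these genes were searched for the letters bound by the factors named above, since the members were chosen by function and not by sequence. RefSeq promoters (GRCh38.p14, 250 bases before to 50 after the start of a gene) matched 40 of the 46 genes, and MCM4, MCM5, GINS4, POLD3, RPA2 and RPA3 were not matched. An E2F motif, any of TTTCCCGC, TTTCGCGC, TTTGCCGC and TTTGGCGC on either strand, was in 17 of the 40, or 42.5%, against 3.33% of all 27305 promoters. CCAAT, the letters bound by NF-Y, was on either strand in 55% against 35.7%. TTTGAA, the CHR letters common in G2/M genes, was in 2.5%, the promoter of DBF4 alone, against 15.4%. The set of all promoters was not matched to the members for expression or base composition. The part of either in these differences was not tested. The strict p53 full site was in 0 of the 40 and in 0.0293% of all promoters, which says only that these letters are not in these windows. The following windows show the E2F letters, in capitals, in promoters of clamp, ligase and polymerase genes described above and of licensing and helicase genes.
PCNA, 59 bases before the start, chr20:5126663-5126692 on the minus strand: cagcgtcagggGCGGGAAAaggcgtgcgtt
LIG1, 114 bases before the start, chr19:48170440-48170469 on the minus strand: acttcacccctTTTCCCGCcctcctcccat
POLA1, 137 bases before the start, chrX:24693770-24693799 on the plus strand: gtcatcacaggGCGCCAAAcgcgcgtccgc
RFC3, 55 bases before the start, chr13:33818083-33818112 on the plus strand: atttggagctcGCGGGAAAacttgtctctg
CDT1, 35 bases before the start, chr16:88803743-88803772 on the plus strand: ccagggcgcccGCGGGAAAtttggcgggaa
MCM3, 174 bases before the start, chr6:52284898-52284927 on the minus strand: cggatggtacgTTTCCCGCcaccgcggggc
MCM6, 90 bases before the start, chr2:135876515-135876544 on the minus strand: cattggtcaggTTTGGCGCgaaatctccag
On the log2 scale the median over members with an E2F motif was −0.081 in G245S and −0.11 in R273H, and over those without one −0.12 and −0.11. PCNA, with the lowest fold changes, and CDT1, at 0.013 and 0.017, hold the same 8 letters, GCGGGAAA. A match is a run of letters and not a bound site.

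Other genes of replication and the cell cycle were compared in the same way. Of 40 accessory genes of origin firing and fork progression, 0 passed edgeR's quasi-likelihood test, and the medians were −0.068 in G245S (31 lower and 9 higher by sign) and −0.12 in R273H (30 lower and 10 higher by sign). ATAD5, which unloads PCNA from DNA, had the lowest p among them in R273H. It was at 50.1, 59.6 and 57.6 CPM in the WT libraries, 43.9, 41.2 and 48.5 CPM in G245S and 45.98, 37.2 and 39.1 CPM in R273H. Its log2 fold changes were −0.29 and −0.42 (adjusted p of 0.663 and 0.359 in edgeR), and with no filter on low counts ATAD5 passed in R273H, at −0.43 with an adjusted p of 0.0316 in edgeR. It was named after its values were seen. Of 32 regulators of G1/S and E2F, 0 passed, with a median of −0.029 in each mutant. CDKN1A was at 14.9 and 18.5 CPM in WT replicates 1 and 2, 7.34 to 11.4 CPM in G245S and 11.8 to 14.2 CPM in R273H, and at 19.7 CPM in WT replicate 3. Its log2 fold changes were −0.79 and −0.41 (adjusted p of 0.206 and 0.685 in edgeR). CDKN1A passed in G245S with a replicate block, at −0.93 with an adjusted p of 0.000623 in edgeR, and with no filter on low counts, at −0.79 with an adjusted p of 0.000377. Of 30 mitotic genes, 0 passed, with medians of −0.0062 in G245S (18 lower by sign) and −0.064 in R273H (19 lower by sign).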

How the data were processed

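The authors filtered reads with fastp 0.24.0, aligned them to GRCh38 with STAR 2.7.11, removed duplicates by molecular identifier and counted reads per gene with featureCounts of Subread 2.1.1, by strand and with multi-mapping reads shared as fractions. The deposited values used are expected counts without normalization, and 9 columns of CPM that the authors also deposited were not used. Counts were rounded, which moved no member's value by more than 1.23%. The fits do not use WT replicate 3, whose depth fell below a limit of 4096044 counts (0.5 of the median depth over the 8 remaining libraries). Genes were filtered with filterByExpr, scaled with TMM and tested over the whole table in edgeR 4.0.16 (R 4.3.3) by quasi-likelihood, and p-values were adjusted by Benjamini-Hochberg with a threshold of 0.05. CPM values printed are scaled over all 9 libraries, with mean ± SD over those in the fits. DESeq2 1.42.0, other scalings, filters and choices of libraries were alternatives. Plots used matplotlib 3.10.9. The scripts were tested on simulated counts. The members and lists were chosen with earlier results of these data known. The text gives values for MCM2 to MCM7, PCNA, members with an unadjusted p under 0.05 in a comparison, those with the highest and lowest fold change, MDM2 and CDKN1A, and others were named after their values were seen to account for each role. Some genes that were planned as checks are not reported here.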

Additional observations from a re-analysis of the deposited data

How the results depend on the processing

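No member passed the threshold under any alternative run, and the lowest adjusted p of a member was 0.0538, for PCNA in G245S with no filter on low counts. In G245S the members' median log2 fold change was −0.045 with all 3 WT libraries, −0.053 with WT replicates 1 and 3 and 0.0062 with WT replicates 2 and 3, and −0.13 to −0.055 when 1 library of the fit was left out, the latter without WT replicate 1. In R273H it was −0.063, −0.063 and −0.024, and −0.14 to −0.068. Members lower by sign were 23 in G245S with WT replicates 2 and 3. Members lower without overlap in G245S were 7 with all 3 WT libraries (5.75% of all genes) and 7 with WT replicates 2 and 3 (14.9%). In R273H they were 5 with all 3 WT libraries (5.82%) and 6 with WT replicates 2 and 3 (15.6%). WT replicates 1 and 3 gave 9 in R273H, against 11.2% of all genes, and library size scaling also gave 9, against 8.15%. Leaving out 1 library gave 14 to 30 in G245S and 18 to 27 in R273H, the highest without WT replicate 2. That setting leaves 1 WT library, and 25.1% and 24.2% of all genes were then lower without overlap. Without WT replicate 1 it was 18 and 19 members, against 25.4% and 27.4% of all genes. Leaving out 1 mutant library gave 14 to 21 members in G245S and 18 to 19 in R273H. The shares of all genes were then 15.8% to 19.1% and 15.8% to 17.5%. Between the mutants library size scaling gave a median of 0.025 with 15 members lower by sign, against 43.5% of all genes. Leaving out 1 library gave 1 to 6 members lower without overlap between the mutants, against 8.23% to 13.4% of all genes.
With all 3 WT libraries, WT replicates 1 and 3, and WT replicates 2 and 3 in turn, MCM6 had log2 fold changes of 0.021, 0.084 and 0.14 in G245S and 0.11, 0.17 and 0.22 in R273H, and MCM7 of 0.019, 0.071 and 0.045, and 0.025, 0.073 and 0.050. MCM6 in R273H ranged from −0.064 to 0.023 when 1 library was left out, the latter without WT replicate 1, and was at 0.0020 with library size scaling. With WT replicates 1 and 3 and then 2 and 3, MCM4 had 0.069 and 0.045 in G245S and 0.038 and 0.018 in R273H. MCM3 had 0.061 and 0.022 in G245S and, with WT replicates 1 and 3, 0.0050 in R273H. MCM2 with WT replicates 2 and 3 had 0.038 and 0.0081. The cause of these reversals was not tested. PCNA, RFC2, DBF4, POLA1, FEN1, LIG1 and PRIM2 kept their direction against WT in every alternative run. So did MCM5, which ranged from 0.029 to 0.26 in G245S and from 0.021 to 0.26 in R273H. For PCNA, RFC2, DBF4, LIG1 and PRIM2 every mutant library lay on 1 side of every WT library in CPM. Exchanging or dropping libraries could therefore hardly reverse their sign. RFC2, DBF4, POLA1, FEN1, LIG1 and PRIM2 were also named for their values in these same libraries. Their kept direction is thus no separate evidence of a change.
Replicate numbers are not stated to pair libraries. In R273H against G245S the deviations of same-numbered libraries correlated across genes with r = 0.168, 0.304 and −0.0152, so numbers 1 and 2 went best with their own and number 3 did not. Against WT, numbers 1 and 2 gave r = −0.0225 and −0.132 in G245S and −0.164 and 0.0302 in R273H. These values show no pairing with WT. With the replicate block 0 members passed, the medians were −0.073, −0.12 and 0.00052, and over all genes 76, 47 and 59 passed in place of 20, 22 and 0. The block brought CDKN1A past the threshold in G245S, in a fit where G245S replicate 3 has no WT library of its number. Without a filter on low counts 144, 93 and 125 genes passed. With WT replicates 1 and 3, 3 and 4 passed. Depth limits the WT arm, where 1 WT library left out leaves a lone sample assumed to vary like the mutants.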
